A study of Mus musculus with 15 samples.

Results

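The genes described are the matrix metalloproteinases (MMPs), the ADAM, ADAMTS and ADAMTS-like proteins and the tissue inhibitors of metalloproteinases (TIMPs) of mouse pancreas. They were chosen by name: every gene whose symbol is Mmp, Timp, Adam, Adamts or Adamtsl followed by a number, and at most 1 letter. That gave 85 genes, of which 83 had a probe among the 20660 genes with one, and 63 of the 17339 genes that could be tested. By family, 14 of 23 Mmp, 4 of 4 Timp, 26 of 34 Adam, 15 of 19 Adamts and 4 of 5 Adamtsl genes were tested. Messenger RNA was measured on Agilent 1-colour arrays in whole pancreas of male C57BL/6J mice, 1 array per animal. The mice were wild type (WT) or transgenic (TG); the labels name no transgene, promoter or founder line, and the series title names betacellulin, a ligand of the ERBB receptors. After an 18 h fast each mouse received 1 intraperitoneal injection of saline or of 50 µg/kg cerulein, a secretagogue that induces acute pancreatitis, and was killed 3 h later. There were 4 WT saline, 4 WT cerulein, 3 TG saline and 4 TG cerulein arrays; the saline mice carry a 0 h label although the protocol has them killed at the same time.

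MMPs are zinc endopeptidases that cut collagen, basement membrane and other matrix proteins; most are secreted as inactive zymogens and are held in check by the TIMPs. ADAMs are membrane-anchored relatives, several of which act as sheddases that release growth factors and cytokine receptors from the cell surface, and ADAMTS enzymes are secreted and cut proteoglycans or procollagens. In pancreas, stellate cells, other fibroblasts, duct cells and infiltrating leukocytes are known sources of these enzymes, and ADAM10 and ADAM17 release the ERBB ligands, betacellulin among them.

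A level here is log2 of the array's processed signal minus log2 of that array's 75th percentile over probes, so 0 is the 75th percentile, and a difference of 1 is 2-fold. Differences are group means ± SE from limma, with Benjamini-Hochberg adjustment over all 17339 genes; called genes are those whose adjusted p lay under 0.05. The 75th percentile lay between 152.2 and 528.8 intensity units, and 55.6% to 76.7% of spots were well above background. All 8 acinar cell markers were above background on all 15 arrays. Intestinal markers, summarised as a mean level of 4 tested genes, stood at 1.58 on TG saline replicate 2 and 1.36 on TG cerulein replicate 14, against -3.07 to -0.85 on the other 13 arrays. The arrays came from 3 slides, and slide 2 held 3 cerulein arrays and no saline array, so slide-adjusted values (slide as a term in the model) and values within slides are given with each call of the set; the pathway genes and fibroblast markers called below were called with slide in the model too, except Plau and Pcsk6.

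Across the 63 tested genes the cerulein response was small in number and mixed in direction. In WT mice 4 genes rose (Adamts4, Adam10, Timp1 and Mmp7) and 1 fell (Adamts9); over all genes tested 5.63% rose and 8.35% fell. In TG mice Adamts4 and Adam10 rose and Adamts9 and Adamts16 fell, with a background of 4.78% and 3.41%. In both directions together the set had 5 and 4 calls, against 14% and 8.2% of all genes, so its genes were not called more often than genes at large. The median difference over the 63 genes was 0.01 in WT and 0.08 in TG mice, against -0.06 for all genes in each. Between genotypes, Mmp3 was higher in TG mice after saline and Mmp2 and Mmp3 after cerulein. Over all genes 0.075% were called higher after saline and 0.138% after cerulein, and none and 0.00577% lower (0.144% in either direction after cerulein). Among the calls counted here, Adamts4 passed the filter on dim probes (well above background on at least 3 arrays) only through cerulein arrays. Mmp3 passed it only through TG arrays. The direction of these calls was thus fixed in advance. The medians of the 63 genes were 0.06 after saline and -0.10 after cerulein, against 0.00 and 0.10 for all genes. Groups that did not overlap were counted apart from the calls. In the WT response they numbered 5 higher and 6 lower of the 63 (7.35% and 10.1% of all genes), and in the TG response 3 and 9 (9.95% and 11.6%). Between genotypes they numbered 7 higher and 1 lower in TG mice after saline (4.41% and 2.21%) and 5 and 0 after cerulein (1.57% and 0.941%). No gene of the set, and 0% of all genes by the same limma test, had a cerulein response that differed between genotypes after adjustment. At an unadjusted p under 0.05 that difference counted 1 gene of the set higher (Mmp2) and 1 lower (Mmp7), and 134 of 17339 genes in all (0.773%).

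**Figure D1:**
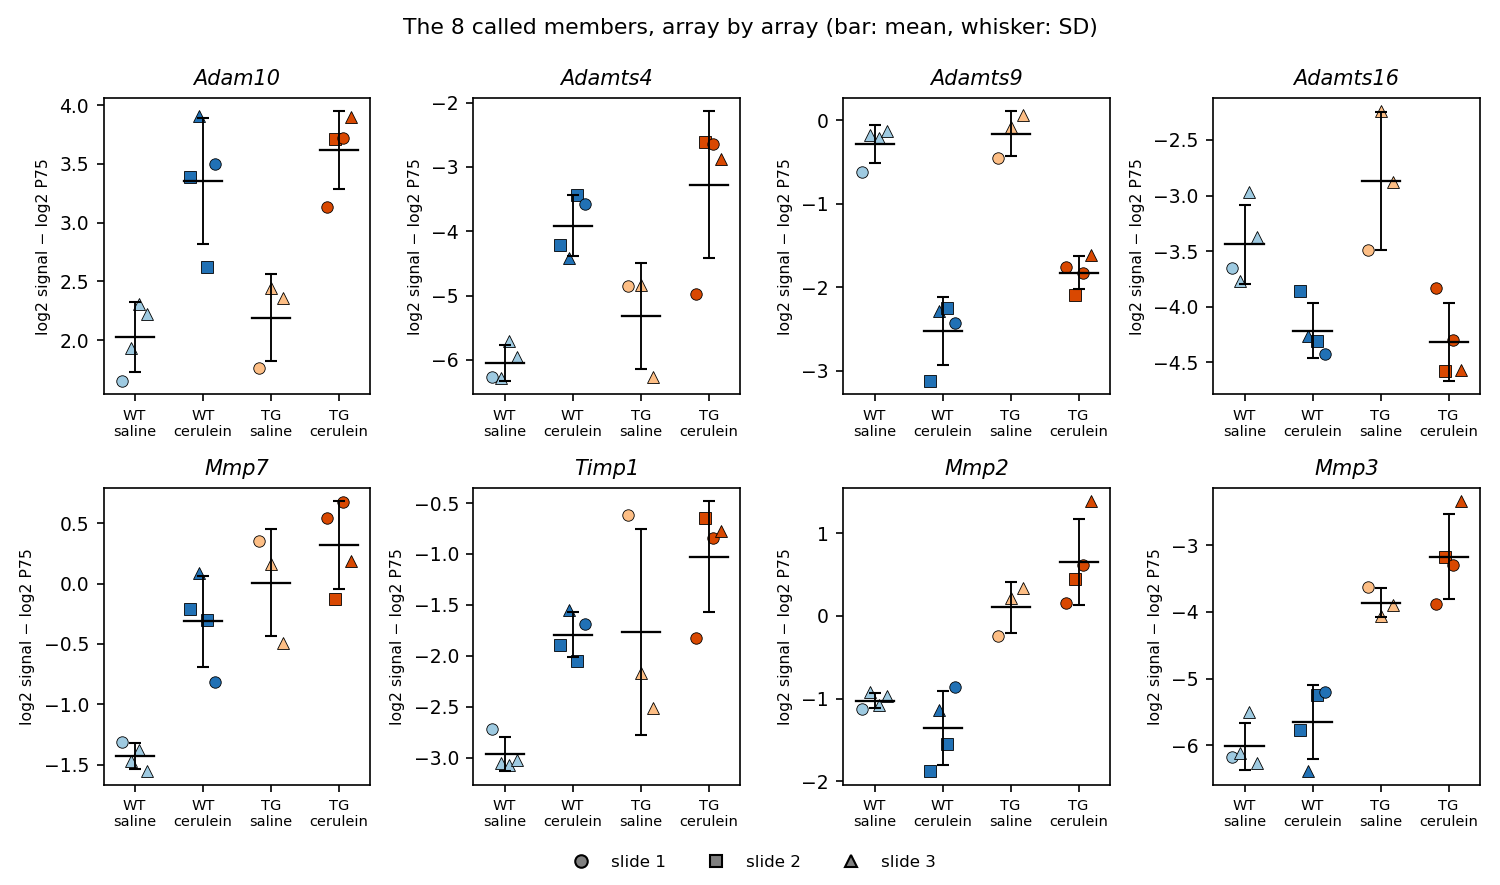
Levels (log2 signal minus log2 75th percentile) of the 8 genes called in at least 1 comparison; each point is an array, the shape marks its slide, bars are group means and whiskers SD (n = 4, 4, 3 and 4). Adamts9 is lower on every cerulein array than on every saline array, and Mmp3 and Mmp2 are higher on every TG array than on every WT array.

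The collagenases Mmp1a, Mmp1b, Mmp8 (a neutrophil collagenase) and Mmp13 were well above background on 0 of 15 arrays, and so was the gelatinase Mmp9, which neutrophils also carry. In all, 13 of the 20 untested genes with a probe were above background on none of the arrays and 7 on 1 or 2; the untested ADAMs include genes best known from the male germ line (Adam20, Adam24, Adam29). Adamtsl5 and Mmp27 had no probe. Of the 63 tested genes, 41 were above background on all 15 arrays. Neutrophil marker genes (7 of 8 tested; Ly6g had no probe named here) had mean levels from -1.78 to -0.40 in WT saline, -0.84 to 0.37 in WT cerulein, -0.31 to 0.85 in TG saline and -0.25 to 0.69 in TG cerulein mice. After saline all 7 tested markers had positive TG minus WT differences (median 1.16, none called), and after cerulein 5 were positive and 2 negative. They did not move together in the WT response, with 5 positive and 2 negative differences. In the WT response 2 were called higher, S100a9 (2.85) and S100a8, also with slide in the model (limma adjusted p = 0.0283 and 0.0286). The S100a8 call was lost with normexp background correction (0.51, limma adjusted p = 0.288). It was also lost with quantile normalization (2.41, adjusted p = 0.0517) and with scaling to the array median (2.19, adjusted p = 0.0756). Csf3r and Elane had negative differences.

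Among the gelatinases, Mmp2, which cuts type IV collagen and is made mainly by fibroblasts, differed by genotype. Its levels were -1.13, -0.92, -1.08 and -0.97 in WT saline mice and -0.86, -1.13, -1.55 and -1.88 in WT cerulein mice. They were -0.25, 0.22 and 0.34 in TG saline mice and 0.16, 0.62, 1.38 and 0.44 in TG cerulein mice. Every TG array lay above every WT array, with no overlap under either treatment. In whole tissue, fewer cells of a type and less RNA per cell cannot be told apart, nor can more cells and more RNA per cell. After cerulein Mmp2 was higher in TG mice by 2.01 ± 0.28 (4.02-fold, limma adjusted p = 0.00671), and after saline by 1.13 ± 0.30 (2.19-fold, adjusted p = 0.487, not called). With slide in the model the difference after cerulein was 1.92 (adjusted p = 0.00251), and it was 1.24, 2.16 and 2.52 within slides 1, 2 and 3. The call was lost without the 3 arrays of slide 2 (1.72, adjusted p = 0.279) and when only the 8 cerulein arrays were fitted (adjusted p = 0.157). Cerulein itself left Mmp2 at -0.33 ± 0.28 in WT and 0.55 ± 0.30 in TG mice (adjusted p = 0.423 and 0.316; with slide in the model 0.80 in TG mice, adjusted p = 0.0249).

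The stromelysins are broad-spectrum enzymes that can also activate other proMMPs. Mmp3 (stromelysin-1) was at -6.18, -6.12, -5.50 and -6.27 in WT saline mice and at -5.20, -6.39, -5.25 and -5.77 in WT cerulein mice, not well above background on any of these 8 arrays. It stood at -3.63, -4.06 and -3.90 in TG saline mice (1 of 3 above background) and at -3.89, -3.30, -2.34 and -3.17 in TG cerulein mice (4 of 4). The genotypes did not overlap. Since WT mice give only a bound, Mmp3 was at least 3.07-fold higher in TG mice after cerulein (fitted difference 2.48 ± 0.33, limma adjusted p = 0.00575) and at least 1.32-fold higher after saline (2.15 ± 0.36, adjusted p = 0.0366). These bounds set the TG mean against the higher, on each WT array, of the probe's own value and the dimmest signal that was well above background. Mmp3 passed the filter on dim probes only through TG arrays, so it had to differ in the direction seen. Slide-adjusted differences were 2.53 after cerulein (adjusted p = 0.00936; 1.61, 2.34 and 4.05 within slides 1, 2 and 3) and 2.16 after saline (adjusted p = 0.0488; 2.56 and 1.98 within slides 1 and 3). With normexp background correction the differences were 0.42 and 0.17 (adjusted p = 0.600 and 1.00). The cerulein call was also lost without slide 2 (2.62, adjusted p = 0.173) and with only the 8 cerulein arrays, and the saline call in 15 of 25 alternative fits.

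Mmp10 (stromelysin-2), which lies in the same chromosome 9 cluster as Mmp3, was not called in any comparison. Its levels were -1.48, -3.17, -3.20 and -3.08 in WT saline, -2.23, -4.26, -1.34 and -0.95 in WT cerulein, -3.33, -3.12 and -4.57 in TG saline and -4.27, -2.22, -4.05 and -1.35 in TG cerulein mice. The groups overlapped throughout, and the 3 arrays of slide 2 were among the 4 highest. Differences ran from -0.94 ± 0.81 (TG against WT after saline, adjusted p = 1.00) to 0.70 ± 0.81 (TG response, adjusted p = 0.669). Mmp11, the third stromelysin, differed by -0.16 in WT and -0.08 in TG mice after cerulein and was not called. A further probe of Mmp11, above background on all 15 arrays, gave -1.07 and -1.04, so its 2 probes disagree.

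Matrilysin, Mmp7, is an epithelial MMP without the hinge and hemopexin domains of most others. In WT mice it rose with cerulein, from -1.31, -1.47, -1.38 and -1.55 after saline to -0.82, 0.09, -0.31 and -0.21. The groups did not overlap, and the difference was 1.12 ± 0.25 (2.17-fold, limma adjusted p = 0.00898; slide-adjusted 1.18, adjusted p = 0.0098, and 0.50 and 1.56 within slides 1 and 3). In TG mice it was already at 0.35, 0.17 and -0.49 after saline, all above the WT saline arrays, and at 0.54, 0.67, 0.18 and -0.13 after cerulein, overlapping (0.31 ± 0.27, adjusted p = 0.553). The TG minus WT difference was 1.43 ± 0.27 after saline and 0.63 ± 0.25 after cerulein, neither called (adjusted p = 0.0962 and 0.603). The 2 responses differed by -0.81 ± 0.37 (unadjusted p = 0.0460, adjusted p = 1.00). The WT call was lost with scaling to the array median (0.92, adjusted p = 0.0898) and without slide 2 (1.06, adjusted p = 0.0502). Without TG saline replicate 2, 1 of the 2 arrays with high intestinal markers, the saline difference was 1.26; of 6 duct markers, which ran from -1.68 to 0.77 in the WT response, Sox9 and Muc1 were called lower there, and none was called between genotypes after saline (median 0.38). The Muc1 call was lost with slide in the model (-0.77, limma adjusted p = 0.096) and with scaling to the array median (-1.17, adjusted p = 0.0772). The part of either marker list in these values was not tested.

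**Figure D2:**
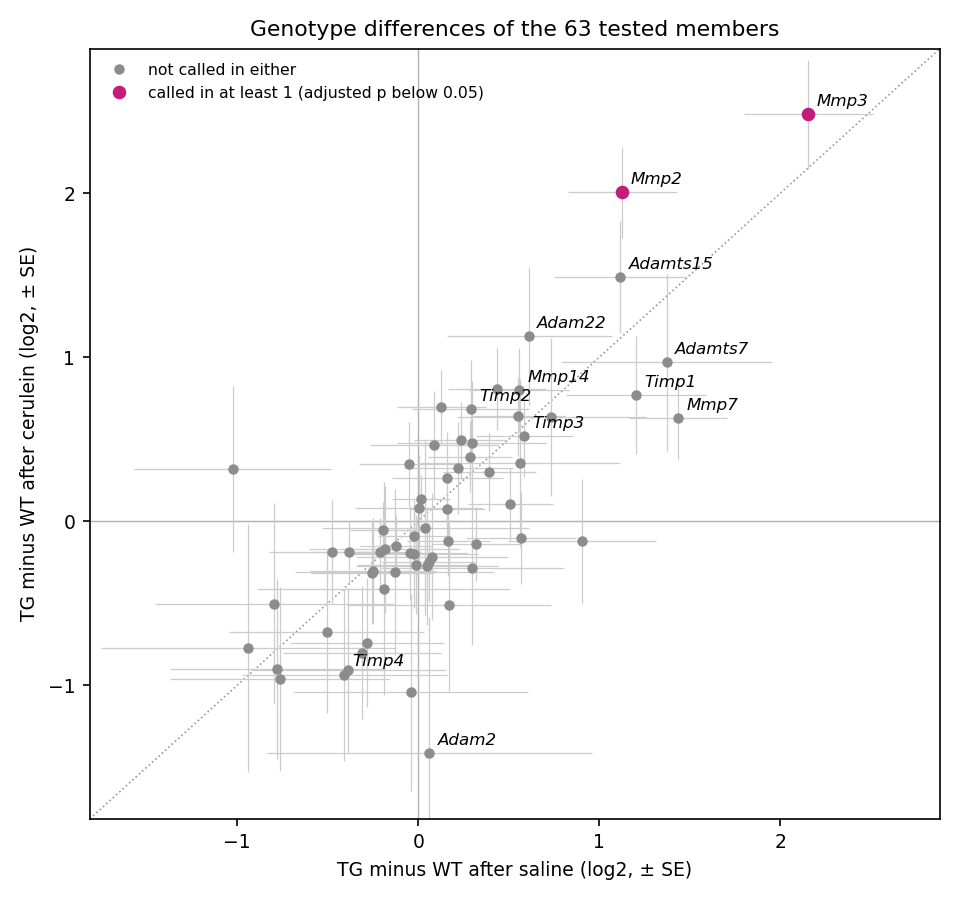
TG minus WT differences (log2, ± SE) after cerulein against those after saline for the 63 tested genes, each point a gene; the dotted line marks equal differences. Mmp3 (2.15 and 2.48) and Mmp2 (1.13 and 2.01) lie farthest to the upper right, and Adam2, the most negative after cerulein (-1.41), was not called.

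Mmp3, Mmp7, Mmp10 and Mmp13 belong to a cluster of 10 adjacent Mmp genes on chromosome 9, 9 with a probe and 4 tested (also Mmp12). Their promoters are shown because the AP-1 element, the site bound by FOS and JUN dimers, is a textbook feature of inducible MMP genes, and because the 4 genes differed in their calls here: Mmp3 was called between genotypes, Mmp7 in the WT response and Mmp10 in no comparison, and Mmp13 was not well above background on any array. Each line gives the 250 bases before the start annotated by RefSeq (build GRCm38.p6), 5′ to 3′, with AP-1 matches (TGANTCA) and TATA matches (TATAAA) in capitals.
Mmp3, chr9:7445572-7445821, plus strand: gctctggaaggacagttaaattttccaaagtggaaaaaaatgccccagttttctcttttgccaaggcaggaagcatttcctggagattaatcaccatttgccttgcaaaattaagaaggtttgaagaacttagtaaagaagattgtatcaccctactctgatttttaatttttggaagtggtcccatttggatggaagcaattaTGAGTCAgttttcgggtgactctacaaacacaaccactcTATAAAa
Mmp7, chr9:7691840-7692089, plus strand: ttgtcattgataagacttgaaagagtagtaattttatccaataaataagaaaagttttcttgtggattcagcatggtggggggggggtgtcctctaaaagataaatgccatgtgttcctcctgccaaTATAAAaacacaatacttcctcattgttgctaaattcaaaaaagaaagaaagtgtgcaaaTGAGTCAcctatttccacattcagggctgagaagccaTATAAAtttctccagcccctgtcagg
Mmp10, chr9:7502092-7502341, plus strand: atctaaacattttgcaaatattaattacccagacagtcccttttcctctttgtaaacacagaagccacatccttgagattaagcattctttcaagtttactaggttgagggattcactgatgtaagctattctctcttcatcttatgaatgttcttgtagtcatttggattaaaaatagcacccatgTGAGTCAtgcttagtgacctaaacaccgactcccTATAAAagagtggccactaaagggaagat
Mmp13, chr9:7272264-7272513, plus strand: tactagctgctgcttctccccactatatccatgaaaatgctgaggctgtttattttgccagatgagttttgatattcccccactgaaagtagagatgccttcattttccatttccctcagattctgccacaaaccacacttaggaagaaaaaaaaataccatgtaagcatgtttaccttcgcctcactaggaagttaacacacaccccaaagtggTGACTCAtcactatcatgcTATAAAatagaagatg

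Only windows of these genes with an AP-1 match were printed, so its presence in all 4 is given by that choice. Each of the 4 windows held 1 AP-1 match, at 46 to 40 bases before the annotated start in Mmp3, 63 to 57 in Mmp7, 63 to 57 in Mmp10 and 35 to 29 in Mmp13. Each had a TATA match nearer the start, and Mmp7 a further one upstream of its AP-1 match. Both strands were searched, and the AP-1 and TATA motifs share no bases in these windows. A window was found for 54 of the 85 genes. AP-1 matches lay in 12 of the 54 (22.2%), against 2113 of 27025 genes with a window (7.82%), and 8 of the 12 were genes of the chromosome 9 cluster, in which only Mmp8 and Mmp27 lacked one. TATA matches lay in 13 of 54 (24.1%, against 14.3%), and the CRE motif TGACGTCA in 0 of 54 (against 1.77%). No AP-1 match was in the windows of Adamts9, Adam10 or Timp1, which were called after cerulein.

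The membrane-type MMPs sit on the cell surface, and Mmp14 (MT1-MMP) is the known activator of proMMP2 together with TIMP2. None of the 5 tested was called in any comparison. Mmp14 stood at -2.43, -2.71, -3.02 and -2.48 in WT saline, -2.42, -2.69, -3.17 and -3.41 in WT cerulein, -2.19, -2.04 and -2.08 in TG saline and -2.46, -2.18, -1.54 and -2.31 in TG cerulein mice. The TG saline arrays all lay above the WT saline arrays, while the cerulein groups overlapped by 1 array. The differences were 0.56 ± 0.28 after saline and 0.80 ± 0.26 after cerulein (limma adjusted p = 1.00 and 0.411). Mmp12 (the macrophage elastase) differed by -0.14 and -0.31 after cerulein in WT and TG mice. Mmp19, at 1.43 ± 0.47 in the WT response, just missed the threshold (adjusted p = 0.0541; slide-adjusted 0.56).

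Fibroblast markers also stood higher in TG mice. All 10 markers (Col1a1, Col1a2, Col3a1, Pdgfra, Pdgfrb, Dcn, Lum, Des, Acta2 and Vim) had positive TG minus WT differences after saline and after cerulein, with medians of 0.86 and 1.36; with normexp or quantile scaling 9 of 10 were positive after saline and 10 of 10 after cerulein. After cerulein 3 were called: Lum at 2.54 ± 0.39, Col1a1 at 2.51 ± 0.46 and Col1a2 at 1.91 ± 0.34 (limma adjusted p = 0.0133, 0.0467 and 0.0383); the calls of Col1a1 and Col1a2 were lost with scaling to the array median (adjusted p = 0.0748 and 0.112). In the WT response, in which Mmp7 rose, all 10 had negative differences (median -0.33, none called, not slide-adjusted). The mean level of the 10 ranged from 0.80 to 1.26 in WT saline, 0.06 to 1.14 in WT cerulein, 1.5 to 2.11 in TG saline and 1.31 to 2.56 in TG cerulein mice. The lowest means, 0.35 and 0.06, were on the WT cerulein arrays of slide 2, which held no saline array. On slide 1 the mean in WT mice was 0.80 after saline and 1.14 after cerulein. On slide 3 it was 0.84 to 1.26 after saline and 0.94 after cerulein. The part of these markers in the Mmp2 and Mmp3 differences was not tested. Of the astacin proteases and their enhancers, Pcolce, which speeds procollagen C-terminal processing, was the 1 called of 5 tested (1.70 ± 0.31, adjusted p = 0.0467; with scaling to the array median 1.82, adjusted p = 0.190).

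**Figure D3:**
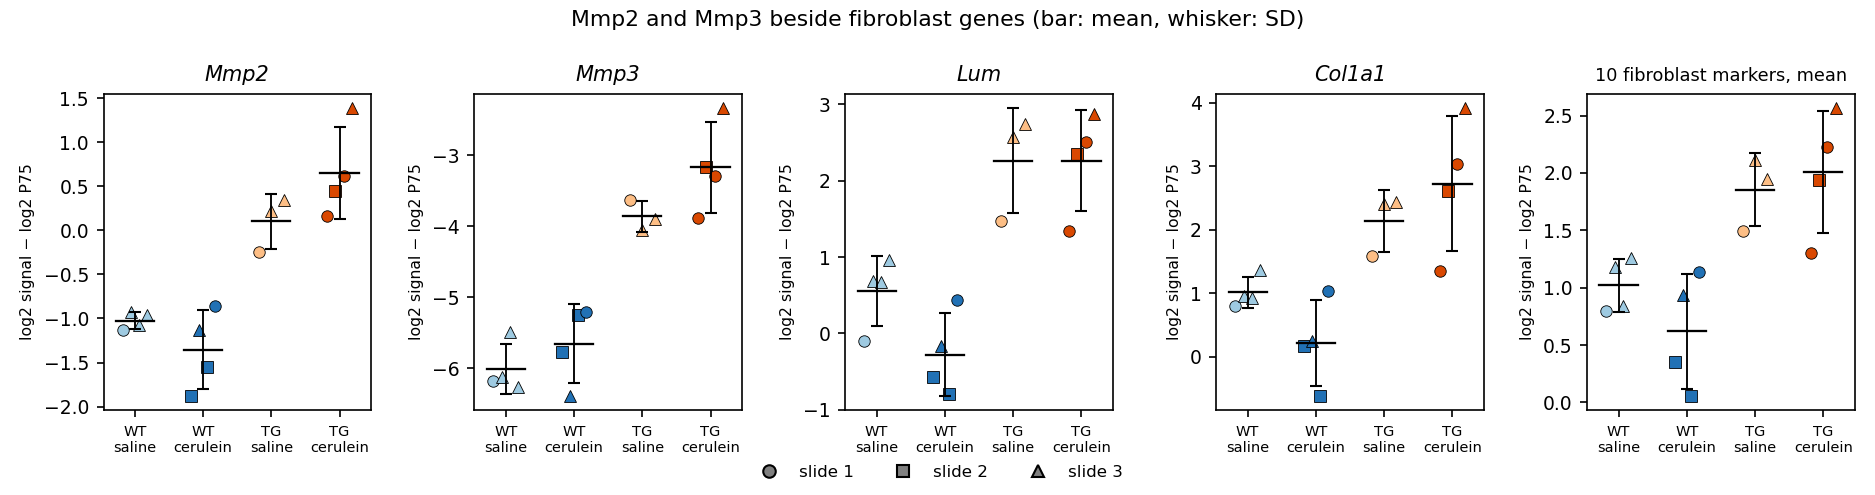
Levels (log2 signal minus log2 75th percentile) of Mmp2, Mmp3, the fibroblast genes Lum and Col1a1, and the mean of 10 fibroblast markers; points are arrays, shapes slides, bars means and whiskers SD. The panels for Mmp2, Mmp3, Lum and the marker mean set every TG array above every WT array, while for Col1a1 the lowest TG array (1.35) lay just under the highest WT array (1.37); the marker mean was at 1.31 to 2.56 in TG and 0.06 to 1.26 in WT mice.

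Among the sheddases, Adam10, which releases betacellulin, EGF and the Notch receptors' extracellular parts, rose in both genotypes. Its levels were 1.65, 1.93, 2.31 and 2.22 in WT saline mice and 3.50, 3.91, 2.62 and 3.38 in WT cerulein mice. In TG mice they were 1.76, 2.44 and 2.36 after saline and 3.14, 3.72, 3.90 and 3.71 after cerulein. Cerulein and saline arrays did not overlap in either genotype. The rise was 1.33 ± 0.28 in WT (2.51-fold, limma adjusted p = 0.00642) and 1.43 ± 0.31 in TG mice (2.69-fold, adjusted p = 0.00896). The 2 rises differed by 0.10 ± 0.42 (95% interval -0.79 to 0.99), and the genotypes by 0.16 ± 0.31 after saline and 0.26 ± 0.28 after cerulein. Slide-adjusted rises were 1.65 and 1.68 (adjusted p = 0.000419 and 0.000326), with 1.84 and 1.76 within slides 1 and 3 in WT and 1.67 and 1.49 in TG mice. Of 26 alternative fits 1 ended both calls, scaling to the array median (adjusted p = 0.0780 and 0.0782).

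Adam17 (TACE), the main sheddase of TGF-alpha, HB-EGF and amphiregulin, was not called. It stood at -3.74, -2.36, -2.65 and -2.44 in WT saline and -3.23, -2.92, -3.54 and -3.22 in WT cerulein mice, and at -2.95, -2.72 and -2.84 in TG saline and -3.89, -3.21, -3.07 and -3.50 in TG cerulein mice. The TG groups did not overlap, and the WT groups overlapped through WT saline replicate 5. The differences were -0.43 ± 0.29 and -0.58 ± 0.31 (limma adjusted p = 0.321 and 0.306); without WT saline replicate 5 the first was -0.75 (adjusted p = 0.0432). A further probe of Adam17 gave -0.87 and -0.68. Of the 9 tested proteolytic ADAMs of somatic tissues, Adam10 was the 1 called; the median of the 9 was -0.10 in the WT and 0.12 in the TG response.

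Rhbdf2 encodes iRhom2, a cofactor that takes ADAM17 to the cell surface, and was the 1 gene that rose in both genotypes among 20 tested regulators of metalloproteinases. Its levels ran from 0.24 to 0.67 in WT saline and 2.32 to 3.53 in WT cerulein mice, and from 0.10 to 0.36 in TG saline and 2.59 to 3.69 in TG cerulein mice, with no overlap. The rises were 2.49 ± 0.27 and 2.83 ± 0.29 (limma adjusted p = 3.94e-05 and 3.89e-05). Its paralogue Rhbdf1 differed by -0.15 and 0.04 and Frmd8, which stabilises the complex, by 0.79 and 0.64, none called; Pcsk6, a proprotein convertase, fell by 0.78 in WT mice (slide-adjusted -0.43, adjusted p = 0.0944). Of 6 tested ERBB ligands, Hbegf rose by 5.60 ± 0.30 in WT and 5.95 ± 0.33 in TG mice and Tgfa fell by 0.67 ± 0.18 and by 1.1 ± 0.19 (the WT call was lost with scaling to the array median, adjusted p = 0.0710). Btc rose in WT mice (1.55 ± 0.45, adjusted p = 0.0331) and was not called in TG mice (1.48 ± 0.48, adjusted p = 0.0747); the difference between the 2 responses was -0.06 ± 0.66, and with normexp the WT difference was 0.00.

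**Figure D4:**
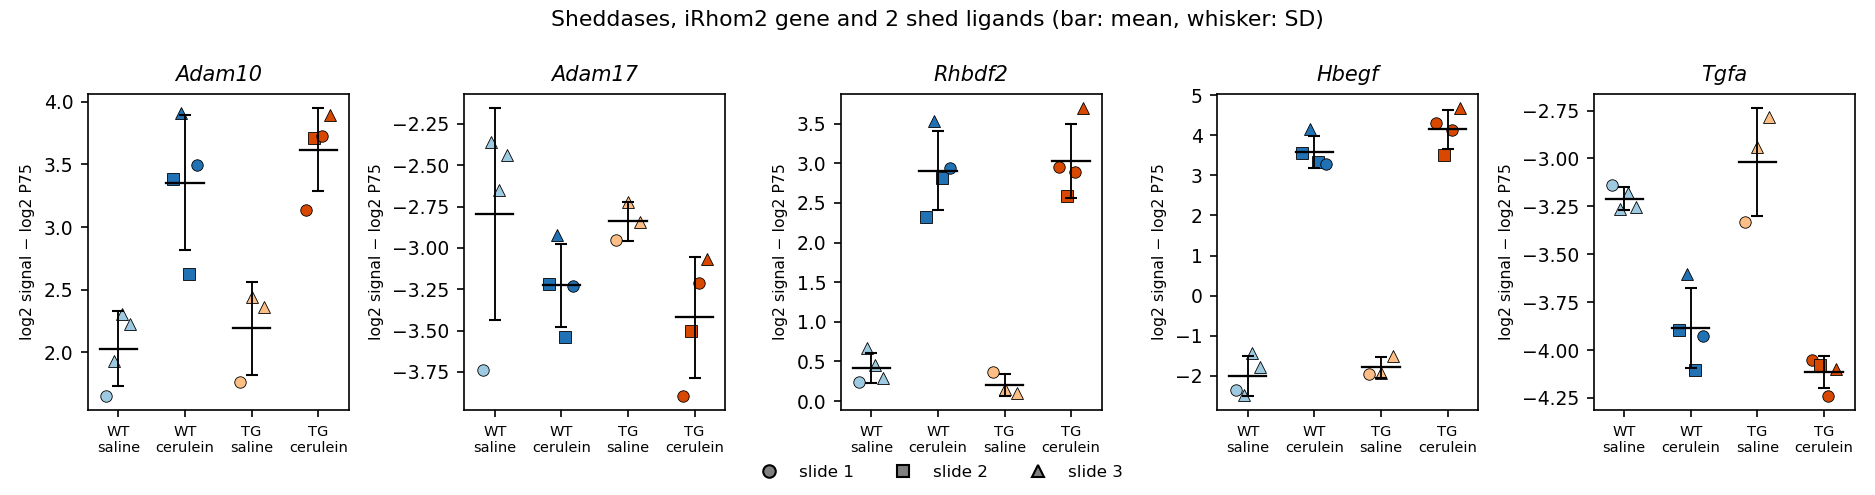
Levels (log2 signal minus log2 75th percentile) of the sheddases Adam10 and Adam17, of Rhbdf2, which encodes iRhom2, and of the shed ligands Hbegf and Tgfa; points are arrays, shapes slides, bars means and whiskers SD. Adam10, Rhbdf2 and Hbegf are higher on all cerulein arrays than on all saline arrays of the same genotype, Tgfa is lower, and Adam17 overlaps in WT mice.

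The ADAMTS hyalectanases cut aggrecan, versican and related proteoglycans, and 6 of 7 were tested. Adamts9, which cuts versican and is also active in the secretory pathway, fell furthest of all 63 genes in WT mice. Its levels were -0.62, -0.18, -0.22 and -0.13 after saline and -2.43, -2.28, -2.25 and -3.12 after cerulein in WT mice, and -0.46, -0.08 and 0.06 after saline and -1.76, -1.83, -1.62 and -2.09 after cerulein in TG mice. No cerulein array reached a saline array in either genotype. It fell by 2.23 ± 0.23 in WT mice (4.70-fold, limma adjusted p = 2.2e-05) and by 1.66 ± 0.25 in TG mice (3.17-fold, adjusted p = 0.000715). Slide-adjusted differences were -1.97 and -1.48 (adjusted p = 2.4e-05 and 0.000151), with -1.80 and -2.11 within slides 1 and 3 in WT and -1.33 and -1.60 in TG mice. Both calls were kept in all 26 alternative fits. After cerulein every TG array lay above every WT array (0.70 ± 0.23, adjusted p = 0.426), and the 2 responses differed by 0.57 ± 0.33 (95% interval -0.15 to 1.29).

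Adamts4 (aggrecanase-1), an enzyme known to be induced in inflamed tissue, rose from a level at which it was not well above background. Its levels were -6.26, -6.28, -5.70 and -5.96 in WT saline mice (0 of 4 above background) and -3.58, -4.42, -3.43 and -4.22 in WT cerulein mice (3 of 4). In TG mice they were -4.85, -4.83 and -6.27 (0 of 3) and -4.98, -2.65, -2.87 and -2.61 (3 of 4). The WT groups did not overlap, while TG cerulein replicate 13 fell within the TG saline range. The rise was at least 1.27-fold in WT (fitted 2.14 ± 0.48, limma adjusted p = 0.00905) and at least 2.10-fold in TG mice (fitted 2.04 ± 0.52, adjusted p = 0.0252). Slide-adjusted differences were 1.90 and 1.92 (adjusted p = 0.0413 and 0.0342), with 2.68 and 1.56 within slides 1 and 3 in WT and 1.04 and 2.67 in TG mice. Adamts4 passed the filter on dim probes only through cerulein arrays, so it had to differ in the direction seen. With normexp the differences were -0.13 and -0.00 (adjusted p = 0.608 and 0.993), which reversed both. Both calls were also lost without slide 2 (2.05 and 1.82). The TG call was lost as well without TG saline replicate 4 (1.57), without TG cerulein replicate 14, 15 or 16 (1.83, 1.91 and 1.82) and with the TG arrays alone (adjusted p = 0.103); the WT call was also lost in the authors' series table (0.83).

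Adamts16, a less studied family member, fell in TG mice. Its levels were -3.49, -2.24 and -2.88 after saline and -3.83, -4.29, -4.56 and -4.58 after cerulein, without overlap (-1.45 ± 0.30, 2.72-fold, limma adjusted p = 0.00794; slide-adjusted -1.38, adjusted p = 0.00844; -0.57 and -2.0 within slides 1 and 3). In WT mice they were -3.65, -3.77, -2.97 and -3.37 after saline and -4.42, -4.26, -4.31 and -3.86 after cerulein, also without overlap (-0.77 ± 0.28, adjusted p = 0.0794; called with normexp, at -0.55, and with quantile normalization, at -1.09). The 2 responses differed by -0.67 ± 0.41 (adjusted p = 1.00), and without TG saline replicate 3 the TG call was lost (-1.13, adjusted p = 0.0615).

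The other hyalectanases were not called. Adamts15 had the third largest genotype difference of the set after cerulein, 1.49 ± 0.34 (limma adjusted p = 0.157), and 1.11 ± 0.37 after saline (adjusted p = 1.00). Its levels were -2.80, -1.98, -2.34 and -2.65 in WT saline, -1.84, -1.43, -1.68 and -2.67 in WT cerulein, -1.78, -0.44 and -1.76 in TG saline and -0.22, -0.35, -0.18 and -0.91 in TG cerulein mice. The TG arrays lay above the WT arrays under both treatments. Adamts1 and Adamts5 differed by -0.07 and -0.42 in the WT response. A further probe of Adamts5, above background on 13 arrays, gave -1.46 there. For TG minus WT after cerulein it gave 1.47, against 0.39 at the probe used. The versican gene Vcan, a substrate of this group, fell by 0.84 in TG mice (adjusted p = 0.0478; with scaling to the array median 0.265), and Thbs1 rose by 3.52 and 3.03 in WT and TG mice, the 2 calls in either response among 14 tested matrix genes outside the collagens.

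**Figure D5:**
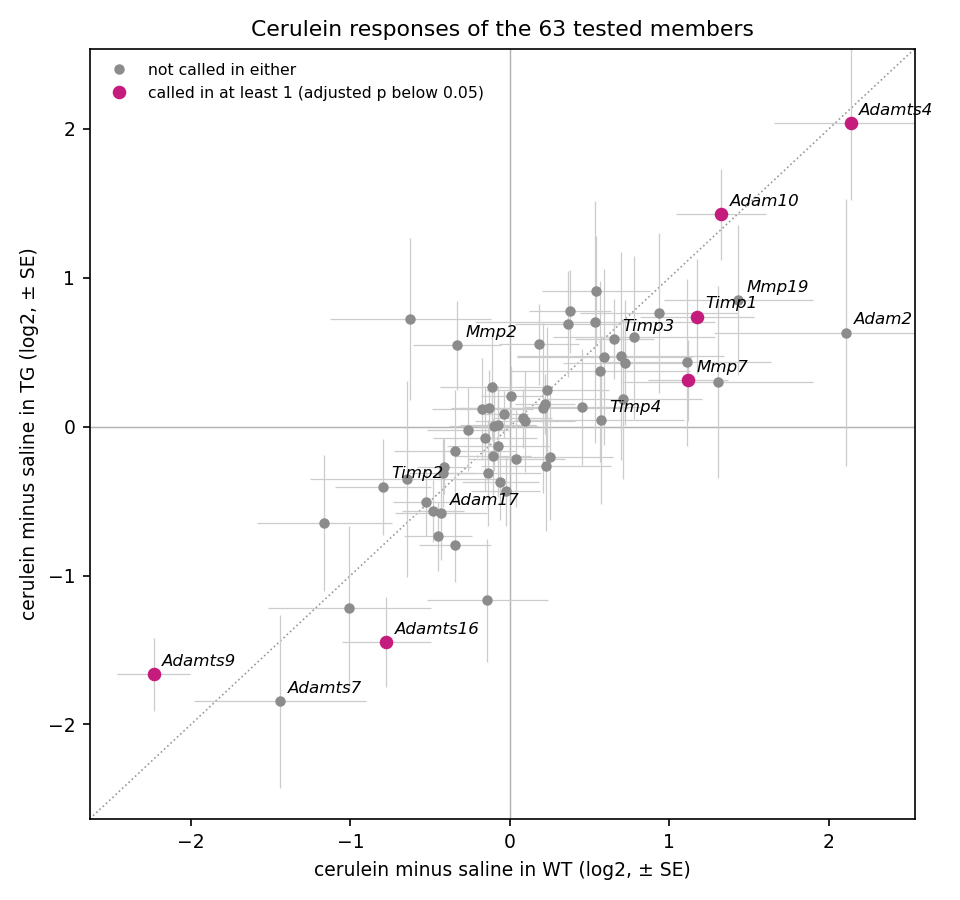
Cerulein responses (log2 difference ± SE) in TG against WT mice for the 63 tested genes, each point a gene; the dotted line marks equal responses. Adamts4 (2.14 and 2.04), Adam10 (1.33 and 1.43) and Adamts9 (-2.23 and -1.66) lie near the line at its ends, and most other genes lie within 0.5 of 0 (35 of 63 in WT and 37 of 63 in TG mice).

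The remaining ADAMs and ADAMTS genes held no call. Adam8, a leukocyte ADAM, differed by 1.11 ± 0.52 in the WT response (limma adjusted p = 0.161), and the 9 somatic proteolytic ADAMs ran from -0.45 (Adam33) to 1.33 (Adam10). At a further probe, above background on all 15 arrays, Adam33 differed by 0.24 in that response. Adam11, Adam22 and Adam23, which lack the zinc-binding site and act as adhesion or receptor partners in neurons, had negative differences in both responses at the probes used (-0.53, -1.16 and -1.01 in WT and -0.51, -0.65 and -1.22 in TG mice). A further probe of Adam11, above background on all 15 arrays, had the opposite sign, at 0.49 in WT and 0.14 in TG mice. Of 14 other tested ADAMs, mostly known from testis or epididymis, the median was 0.33 in the WT and 0.16 in the TG response, and Adam2, a sperm surface protein, was well above background on 1 of 4 WT saline and 4 of 4 WT cerulein arrays and was not called (adjusted p = 0.102). These medians are not slide-adjusted. With slide in the model the WT differences of Adam1a, Adam30 and Adam26a went from 0.935, 0.78 and 0.71 to 0.03, 0.06 and -0.23. Those of Adam2 and Adam32 went from 2.11 and 0.21 to 0.91 and -0.76 (limma adjusted p = 0.471 and 0.00536). Not all moved down, as Adam39 went from -0.34 to -0.15.

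Adamts7, known for cutting cartilage oligomeric matrix protein, differed by -1.44 ± 0.54 in WT and -1.84 ± 0.58 in TG mice (limma adjusted p = 0.0866 and 0.0664); its 3 arrays above background were all TG arrays. Adamts2, a procollagen N-proteinase, differed by 0.81 ± 0.25 between genotypes after cerulein (adjusted p = 0.377), and in the TG response by 0.55 ± 0.27 (adjusted p = 0.252; slide-adjusted 0.78, adjusted p = 0.0109). A further probe of Adamts2, above background on 11 arrays, gave 0.17 between genotypes after cerulein and 0.77 in the TG response. Adamts14, a relative of Adamts2, was the least variable gene of the set, with a within-group SD of 0.0626, against a median of 0.476 over the 63 genes. The 4 tested ADAMTS-like genes, which encode matrix proteins without a protease domain, ran from -1.17 (Adamtsl3, TG response) to 0.91 (Adamtsl3, TG against WT after saline).

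The inhibitors were all measured. Timp1, an inducible inhibitor of most MMPs, rose in WT mice from -2.72, -3.05, -3.07 and -3.03 to -1.69, -1.55, -2.05 and -1.89. The groups did not overlap (1.17 ± 0.36, 2.25-fold, limma adjusted p = 0.0426; slide-adjusted 1.07, adjusted p = 0.0973; 1.03 and 1.5 within slides 1 and 3). The call was lost in 15 of 26 alternative fits. In TG mice the levels were -0.62, -2.17 and -2.51 after saline and -1.83, -0.85, -0.78 and -0.65 after cerulein, overlapping (0.74 ± 0.39, adjusted p = 0.291), and TG saline replicate 2 alone was as high as the cerulein arrays. Without that replicate the TG response was 1.31 and was called (adjusted p = 0.0256). All TG saline arrays lay above the WT saline arrays (1.20 ± 0.39, adjusted p = 0.917), and without TG saline replicate 2 that difference was 0.63.

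Timp3, which binds to the matrix and also inhibits ADAM10, ADAM17 and hyalectanases, was at 1.40, 1.48, 1.1 and 1.42 in WT saline, 2.26, 2.53, 1.53 and 1.70 in WT cerulein, 1.70, 2.11 and 2.0 in TG saline and 2.42, 2.59, 2.96 and 2.14 in TG cerulein mice. Cerulein and saline arrays did not overlap in either genotype, but the differences, 0.65 ± 0.25 and 0.59 ± 0.27, were not called (limma adjusted p = 0.0898 and 0.215). With slide in the model they were 1.06 and 0.83, both called (adjusted p = 0.000397 and 0.00179), with 0.86 and 1.20 within slides 1 and 3 in WT and 0.80 and 0.90 in TG mice.

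Timp2, which takes part in the activation of proMMP2, was at 4.12, 4.59, 4.26 and 4.50 in WT saline, 3.91, 4.21, 3.11 and 3.06 in WT cerulein, 4.41, 4.73 and 4.83 in TG saline and 4.17, 4.30, 4.90 and 3.65 in TG cerulein mice. The groups overlapped, and the 2 lowest were WT cerulein arrays of slide 2. It differed by -0.80 ± 0.30 and -0.40 ± 0.32 after cerulein (limma adjusted p = 0.0879 and 0.519; slide-adjusted -0.22 and -0.05), and a further probe gave -0.04 and 0.02. The WT difference was called with quantile normalization (-0.55, adjusted p = 0.0270) and without WT cerulein replicate 10 (-1.01, adjusted p = 0.0258). Timp4 ranged from -3.15 to -0.60 over all arrays, overlapping throughout, and differed by 0.57 ± 0.52 and 0.04 ± 0.56 (adjusted p = 0.463 and 0.974). Its highest values were on WT saline replicate 5 and the arrays of slide 2.

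The plasminogen system, whose product plasmin can activate proMMPs, moved in both directions. Plaur, the urokinase receptor, rose by 1.81 ± 0.31 in WT and 1.82 ± 0.33 in TG mice (limma adjusted p = 0.00148 and 0.00344). Plau, urokinase itself, fell by 1.04 ± 0.31 in WT mice (adjusted p = 0.0392; slide-adjusted -0.70, adjusted p = 0.0803). None of the 10 tested genes of this system was called between genotypes.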

How the data were processed

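Each array was one animal's pancreas RNA (Cy3, 1 colour). Per the file headers, the deposited processed intensity was background-subtracted and detrended within each array by Agilent Feature Extraction 10.7.3.1, with no normalization between arrays, and the same files carry the flags used here. The authors also deposited a series table of log2 values used as an alternative; how it was scaled is not given in the sources used here. Spots flagged as outliers and control spots were left out and spots of a probe averaged. The log2 processed signal was reduced by log2 of each array's 75th percentile. Probes well above background on at least 3 arrays were kept, each gene was read from its brightest kept probe, and probes were named through RefSeq accessions. limma 3.58.1 (R 4.3.3) was fitted to 4 group means over all 15 arrays, with 5 comparisons, 11 residual and 3.54 prior degrees of freedom; the fit was tested on simulated data. The number of arrays limits the precision. The genes and lists were chosen with earlier results of these data known. Named genes were all called members plus Timp1 to Timp4 and set MMPs and sheddases; other members, named for context, were chosen after their values were seen. Alternatives covered background correction (normexp, offset 50, on the median signal, since the mean signal was not used here), scaling, filter, probe choice, slide, array weights, the groups fitted and each array left out. Some results for the pathway lists are not reported here.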

Additional observations from a re-analysis of the deposited data

Results flagged for a closer look

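Of 42 groups of 4 arrays examined for the named genes, 4 had an array whose gap to its nearest neighbour, as a share of the group's range, passed Dixon's 95% critical value; chance gives about 1 in 20, and the 3 TG saline arrays were too few to examine. Adamts4 on TG cerulein replicate 13 was at -4.98, below the other TG cerulein arrays, and Timp1 on the same array was also lowest, at -1.83. WT saline replicate 5 held the other pair, with Timp1 at -2.72 and Mmp10 at -1.48, each above the other WT saline arrays. Both arrays were on slide 1.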

How the results depend on the processing

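Over 26 alternative settings, 1707 of 1786 values of named genes kept their side of the threshold, and the called ones among them also their direction. Values called in neither fit were counted as kept even where their sign changed. The main losses and gains of calls stand beside the genes. Array weights, not given there, gained further calls. Adamts4 reversed with normexp, to -0.13 in the WT and -0.0031 in the TG response. The WT response had 5 calls, and 10 with normexp, 9 with quantile normalization, 2 with the array median, 9 with slide as a block, 3 without slide 2 and 24 with array weights; over all genes these settings called 18.4%, 19.3%, 6.8%, 21.5%, 8.97% and 40.9%. The TG response had 4 calls, and 7 with quantile normalization, 14 with slide as a block and 25 with array weights, where 12.7%, 23.6% and 44.5% of all genes were called. TG against WT after saline had 1 call (Mmp3), and 0 with normexp, quantile normalization, the array median, the series table, the filter on all 15 arrays, without slide 2 or with only the groups compared, and 9 with array weights (3.25% of all genes). TG against WT after cerulein had 2 calls, 1 with normexp or the filter on all 15 arrays, and 0 without slide 2 or with only the groups compared. Leaving out 1 array at a time gave 4 to 8 calls in the WT response (8 without WT saline replicate 5), 3 to 6 in the TG response, 0 to 1 after saline and 2 to 2 after cerulein. The difference of the responses had 0 calls throughout; fitting only its groups is the same model and was not run apart, and fits within a slide gave values without calls. The median over all genes moved from -0.06 to -0.23 (WT) and -0.20 (TG) with normexp. No paired analysis was possible because the groups share no replicate numbers. Signals near background limit Adamts4, Mmp3, Adamts7 and Adam2, for which folds are bounds or uncertain.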

Other observations

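Adam2, Mmp10 and further genes of the set shared a pattern over arrays that crosses the groups. Adam2 was at -2.23 on WT saline replicate 5, against -6.02 to -5.47 on the other WT saline arrays, and at -2.46, -1.79 and -2.32 on the 3 arrays of slide 2. Mmp10 had its 4 highest values on those same 4 arrays. So had Timp4 (-0.60 on WT saline replicate 5 and -0.95, -0.70 and -0.87 on slide 2). Mmp17 (1.80, and 1.37, 1.52 and 1.20), Adamts18, Adam28 and Adam1a were also highest there. What sets these arrays apart was not tested. Of the 14 other ADAMs, mostly of testis or epididymis, 13 had negative TG minus WT differences after cerulein, with a median of -0.26 against 0.10 for all genes, and none was called. These differences are not slide-adjusted, and slide was unevenly shared. Slide 2 held WT cerulein replicates 11 and 12 but, of the TG cerulein mice, only replicate 16.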
